A study of Mus musculus with 7 samples.

Results

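Api5 and 9 further genes that inhibit or carry out apoptosis were followed through knockdown of the histone methyltransferases G9a and GLP in C2C12 cells, an established line of mouse skeletal myoblasts. The 10 genes were taken by symbol from the platform's annotation, using the brightest probe set with 1 symbol for each, and all 10 were found among 22180 genes. Api5 was included because it was one of 6 genes past the threshold when siG9a was compared with control (limma, Benjamini-Hochberg adjusted p under 0.05), so its difference in that comparison is given as a description. The other 9 genes are the BCL2-like inhibitors Bcl2, Bcl2l1 and Mcl1, the pore-forming effector Bak1, the BH3-only proteins Bcl2l11, Bid and Bad, and the inhibitor of apoptosis proteins Birc2 and Xiap.

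Cells received an siRNA against G9a (siG9a, 3 arrays), an siRNA against GLP (siGLP, 2 arrays) or a control siRNA (2 arrays), 0.2 µmol per 100 mm dish in each group, in medium with 15% fetal bovine serum. G9a (gene Ehmt2) and GLP (gene Ehmt1) methylate histone H3 at lysine 9, and the study asked whether they act differently in myoblasts. The labels give neither the siRNA sequences nor the time of harvest. They also leave unsaid whether arrays of a group came from separate cultures, and each p-value below therefore reflects only how far these arrays spread, which could be technical. Values are log2 signals per probe set from Affymetrix whole transcript arrays, and a difference of 1 is a doubling.

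Apoptosis through mitochondria is set by the BCL2 family. Effectors such as BAK open the outer mitochondrial membrane, inhibitors such as BCL2, BCL-XL (Bcl2l1) and MCL1 hold them back, and BH3-only proteins relieve that hold. Released cytochrome c then activates caspases, which XIAP inhibits directly. API5 is a nuclear protein, described mostly in human cells, that binds the apoptotic chromatin factor Acinus and limits cell death driven by E2F1. Many of these proteins are controlled by cleavage, phosphorylation or turnover, which transcript levels do not show.

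The targeted transcripts followed their labels. Array medians ran from 4.54 to 4.59 and lower quartiles from 3.32 to 3.36. The deposited values were already normalized between arrays, which makes these near equal, so they do not show how alike the arrays were. Over all genes Pearson's r was 0.996 to 0.997 between arrays of the same group and 0.994 to 0.996 between arrays of different groups. Ehmt2 had log2 signals of 6.31, 6.14 and 5.99 in siG9a, against 7.56 and 7.46 in control (difference -1.37, SE 0.10; limma adjusted p = 0.0308), a call that was lost whichever 1 of the 7 arrays was left out. Ehmt1 had 5.73 and 6.13 in siGLP, against 6.71 and 6.73 in control (difference -0.79, SE 0.14; limma adjusted p = 0.197). The myoblast markers Myod1, Myf5, Des, Cdh15, Itga7 and Vcam1 gave signals of 6.82 or more on every array. Of 4 leukocyte markers, Ptprc stayed between 2.73 and 2.93, under the lower quartile, and Cd68, also found in other cells, reached 7.06 to 7.83. The signals of 4 endothelial markers lay between 3.01 and 4.70.

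Api5 was lower in siG9a than in control on every array. Its log2 signal was 8.71, 8.66 and 8.66 in siG9a, 9.37 and 9.24 in siGLP, and 9.39 and 9.41 in control. The siG9a arrays lay below all 4 others and the siGLP arrays just below the control arrays. The siG9a level was 60.7% of control, a log2 difference of -0.72 (SE 0.066), with SDs of 0.031 in siG9a (n = 3) and 0.018 in control (n = 2). RNA came from whole cultures, so a change in every cell and a change in some of the cells cannot be told apart. Leaving out any 1 of the 7 arrays moved this difference only between -0.74 and -0.71, although Api5 was then no longer past the threshold over all genes in any of the 7 cases.

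In siGLP Api5 stood close to control. The siGLP minus control difference was -0.10 (SE 0.072; 95% interval -0.27 to 0.076; limma adjusted p = 0.785). This test uses the same control arrays as the contrast that chose Api5. The targeted transcript stood at 58.0% of control in siGLP (Ehmt1) and at 38.8% in siG9a (Ehmt2). Whether this bears on Api5 was not tested. The siGLP arrays stood 0.63 (SE 0.066) above the siG9a arrays, a value given as a description because it uses the siG9a arrays again. Compared with Ehmt2, the order of the groups was the same (siG9a lowest, then siGLP, then control).

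**Figure D1:**
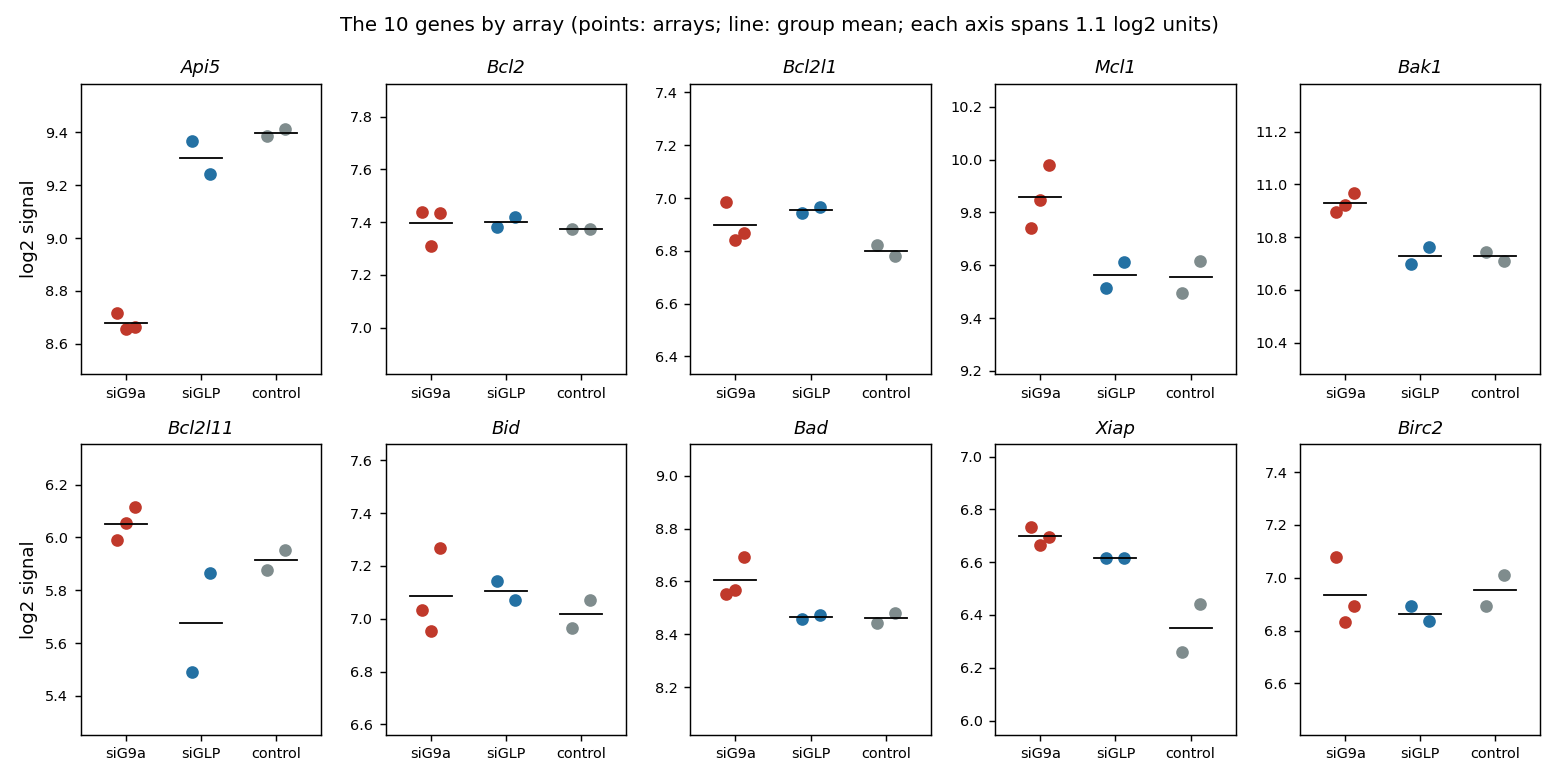
Log2 signal (vertical axis) of the 10 apoptosis genes on each array, with 1 point per array, a line at each group mean, and siG9a, siGLP and control from left to right. Each panel spans the same number of log2 units; Api5 shows the widest gap between groups, with siG9a arrays from 8.66 to 8.71 and control arrays from 9.39 to 9.41.

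The promoter of Api5 is shown as the DNA around the start of the transcript with the widest gap, beside those of Mcl1 and Bak1, which lay on the other side of control in siG9a and, like Api5, have a single start in the RefSeq table (GRCm38.p6). Each sequence runs from 250 bases before to 50 bases after the start, and all 10 genes had at least 1 entry. Api5 lies at chr2:94438137-94438436 on the minus strand, Mcl1 at chr3:95658471-95658770 on the plus strand and Bak1 at chr17:27028578-27028877 on the minus strand. Capitals mark matches on either strand to the GC box GGGCGG, the CCAAT box (CCAAT) and the E-box CANNTG, the kind of site that MyoD binds.
Api5: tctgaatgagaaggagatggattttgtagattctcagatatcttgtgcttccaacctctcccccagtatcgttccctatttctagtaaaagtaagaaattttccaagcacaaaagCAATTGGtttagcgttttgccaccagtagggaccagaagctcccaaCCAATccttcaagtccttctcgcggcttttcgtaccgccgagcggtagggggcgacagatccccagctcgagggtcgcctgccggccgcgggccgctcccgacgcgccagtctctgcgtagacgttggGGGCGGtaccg
Mcl1: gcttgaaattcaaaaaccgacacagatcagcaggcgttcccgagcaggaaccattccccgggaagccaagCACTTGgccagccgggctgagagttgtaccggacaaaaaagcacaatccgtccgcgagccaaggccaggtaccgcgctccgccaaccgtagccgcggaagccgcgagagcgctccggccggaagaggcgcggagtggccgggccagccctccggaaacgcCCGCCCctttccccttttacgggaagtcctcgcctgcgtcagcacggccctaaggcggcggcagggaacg
Bak1: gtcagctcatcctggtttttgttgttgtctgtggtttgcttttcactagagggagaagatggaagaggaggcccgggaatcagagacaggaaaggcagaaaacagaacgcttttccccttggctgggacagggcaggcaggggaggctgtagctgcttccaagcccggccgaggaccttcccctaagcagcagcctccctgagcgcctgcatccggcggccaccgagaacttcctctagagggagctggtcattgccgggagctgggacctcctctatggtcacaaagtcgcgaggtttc
The Api5 window held 1 GC box, 2 CCAAT boxes and 1 E-box, of which 1 CCAAT box on the opposite strand overlaps the E-box. The Mcl1 window held 1 GC box and 1 E-box, and the Bak1 window held 0 matches to these letters. Among 32851 promoter windows of the same length, 35.7% held a GC box, 37.4% a CCAAT box and 72.3% an E-box, so such matches are common. GC content was 54.7% for Api5, 65.7% for Mcl1 and 58.3% for Bak1. No binding or methylation was measured here, and the matches are descriptions of the letters only.

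The 3 BCL2-like inhibitors among the 10 genes did not share the fall of Api5. The 3 further BCL2-like inhibitors measured had means below control in siG9a (-0.41 to -0.065), with arrays overlapping. Mcl1, a short-lived guardian of the mitochondrial membrane, had log2 signals of 9.74, 9.85 and 9.98 in siG9a, 9.51 and 9.61 in siGLP, and 9.50 and 9.61 in control. All siG9a arrays lay above the other 4, with a siG9a minus control difference of 0.30, and the siGLP and control arrays overlapped. A second Mcl1 probe set, not used for the gene's value, gave 0.22 for siG9a minus control and -0.072 for siGLP minus control. In siGLP the Mcl1 difference of the brighter probe set was 0.0068 (SE 0.098; 95% interval -0.23 to 0.24; limma adjusted p = 0.997).

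Bcl2, the founding inhibitor of the family, hardly moved. Its log2 signals were 7.44, 7.31 and 7.44 in siG9a, 7.38 and 7.42 in siGLP, and 7.37 and 7.37 in control. The siG9a arrays overlapped the control arrays (difference 0.021). In siGLP the difference was 0.026 (SE 0.074; 95% interval -0.15 to 0.20; limma adjusted p = 0.958). A dimmer Bcl2 probe set, with a mean of 4.36, gave 0.17 in siG9a and -0.027 in siGLP against control.

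Bcl2l1, which encodes BCL-XL, had log2 signals of 6.99, 6.84 and 6.87 in siG9a, 6.94 and 6.97 in siGLP, and 6.82 and 6.78 in control. Both knockdowns lay above control on every array, by 0.097 in siG9a and by 0.15 in siGLP (SE 0.075; 95% interval -0.024 to 0.33; limma adjusted p = 0.655). The 2 differences rest on the same 2 control arrays.

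Bak1, the effector that forms the mitochondrial pore, was measured with small spread within groups (SD 0.035 in siG9a, 0.046 in siGLP and 0.025 in control). Its log2 signals were 10.90, 10.92 and 10.97 in siG9a, 10.70 and 10.76 in siGLP, and 10.74 and 10.71 in control. The siG9a arrays stood above all others, with a siG9a minus control difference of 0.20, while siGLP and control overlapped. For siGLP minus control the Bak1 difference was 0.0030 (SE 0.067; 95% interval -0.16 to 0.16; limma adjusted p = 0.999).

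Of the 3 BH3-only genes among the 10, Bcl2l11, which encodes BIM, had the widest gap between the knockdowns. Its log2 signals were 5.99, 6.05 and 6.12 in siG9a, 5.49 and 5.86 in siGLP, and 5.87 and 5.95 in control. The siG9a arrays lay above control (difference 0.14) and the siGLP arrays below it (difference -0.24, SE 0.12; limma adjusted p = 0.689). The low siGLP value rests on 1 array: without siGLP 1 the difference was -0.049, and without siGLP 2 it was -0.42.

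Bad, whose product is held inactive by phosphorylation under growth factor signalling, had log2 signals of 8.55, 8.57 and 8.69 in siG9a, 8.46 and 8.47 in siGLP, and 8.44 and 8.48 in control. The siG9a arrays lay above the other 4 by a small margin (difference from control 0.14), and the siGLP arrays fell between the control arrays (difference 0.0015, SE 0.075; limma adjusted p = 1.0). Bid links death receptors to mitochondria once caspases cut its product. It had 7.03, 6.95 and 7.27 in siG9a, 7.14 and 7.07 in siGLP, and 6.96 and 7.07 in control, with siG9a and control arrays overlapping. Its differences from control were 0.068 in siG9a and 0.089 in siGLP (SE 0.11; limma adjusted p = 0.883).

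Xiap, the direct inhibitor of caspases, was higher than control on every knockdown array. Its log2 signals were 6.73, 6.67 and 6.70 in siG9a, 6.62 and 6.62 in siGLP, and 6.26 and 6.44 in control. The siG9a minus control difference was 0.35, the widest among the 9 genes other than Api5. In siGLP it was 0.27 (SE 0.080; 95% interval 0.076 to 0.46; limma adjusted p = 0.409), which did not pass over all genes. The 2 control arrays differed by more than the knockdown arrays did, and the siGLP difference was 0.18 without control 1 and 0.36 without control 2. Birc2, a ubiquitin ligase of TNF receptor complexes, had 7.08, 6.83 and 6.89 in siG9a, 6.89 and 6.83 in siGLP, and 6.89 and 7.01 in control, with differences from control of -0.018 in siG9a and -0.089 in siGLP (SE 0.098; limma adjusted p = 0.863).

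**Figure D2:**
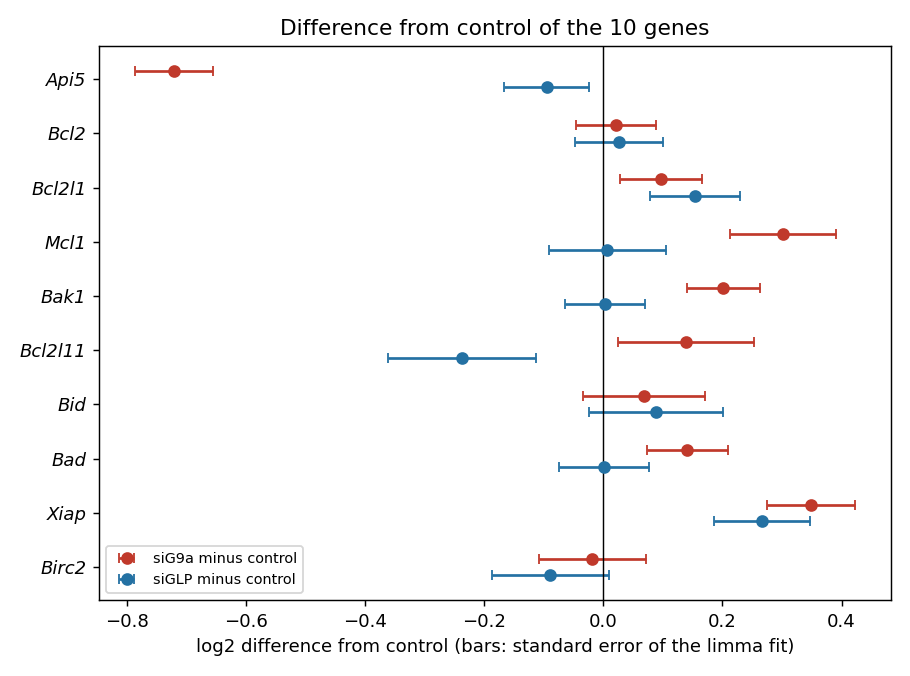
Log2 difference from control (horizontal axis) of the 10 genes for siG9a and siGLP, with points at the difference of group means and bars at plus and minus 1 standard error of the limma fit. Api5 stands apart at -0.72 in siG9a, while Xiap lies to the right of 0 in both knockdowns (0.35 and 0.27).

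Counted together, the 10 genes gave the following picture. In siG9a minus control 1 of 10 passed, Api5, the gene chosen on that contrast, against 0.0271% of all genes. Of the other 9, 8 lay above control in siG9a (median 0.14, against 0.0052 over all genes) and 6 had siG9a arrays wholly above control, a pattern that 14% of all genes showed. An unadjusted p under 0.05 in that contrast was reached by 3 of these 9, against 10.5% of all genes. The contrast helped to choose the list, so nothing is read from these counts. In siGLP minus control 0 of 10 passed by limma (0.00451% of all genes passed), and 1 gene, Xiap, had an unadjusted p under 0.05 (8.63% of all genes). Of the 10, 7 had siGLP arrays that did not overlap control (4 above, 3 below), against 34.2% of all genes, and their median difference was 0.0049, against 0.0015 over all genes.

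Set directly against siG9a, siGLP stood lower for Mcl1, Bak1 and Bcl2l11, and none of them passed over all genes. Of the 9 genes other than Api5, 0 passed by limma in siGLP minus siG9a (0.234% of all genes passed), and these 3 had an unadjusted p under 0.05 (12.4% of all genes). This comparison uses the siG9a arrays again, as did the contrast that helped to choose the list. Nothing is therefore read from these counts. Against control, siGLP differed by only 0.0068 for Mcl1 and 0.0030 for Bak1, so their gaps here largely repeat those of siG9a minus control. Mcl1 differed by -0.29 (SE 0.089; limma adjusted p = 0.255), Bak1 by -0.20 (SE 0.061; limma adjusted p = 0.261) and Bcl2l11 by -0.38 (SE 0.11; limma adjusted p = 0.254). For Bcl2l11 it was -0.19 without siGLP 1 and -0.56 without siGLP 2. For each of these 3, and for Bad and Xiap, the siGLP arrays lay wholly below the siG9a arrays, which 14.2% of all genes showed. The remaining 4, Bcl2, Bcl2l1, Bid and Birc2, overlapped between the knockdowns, with differences from -0.071 to 0.057.

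The genes whose pattern over the 7 arrays was most like that of Api5 were sought among 2058 genes above the median level with a range of at least 0.5 log2 units. Pearson's r was 0.990 for Ski, which encodes a corepressor of TGF-beta signalling, 0.989 for Rbms3, an RNA-binding protein gene, 0.988 for Ehmt2 itself, 0.982 for Qtrt2, a subunit of a tRNA-modifying enzyme, and 0.979 for Tomm70a, a receptor for mitochondrial protein import. The arrays fall into the 3 siRNA groups, so r mostly records the gap between siG9a and the other 4 arrays. In siG9a minus control these genes differed by -0.53 for Ski, -0.64 for Rbms3, -0.78 for Qtrt2 and -0.51 for Tomm70a, against -0.72 for Api5. Each of the other 9 apoptosis genes had a negative r with Api5. It was -0.98 for Bak1, -0.91 for Mcl1, -0.85 for Bad, -0.73 for Xiap and -0.67 for Bcl2l11. For Bcl2l1, Bid, Bcl2 and Birc2 it was -0.20, -0.13, -0.11 and -0.045. These values also mostly record the gap between siG9a and the other 4 arrays, and nothing is read from them.

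**Figure D3:**
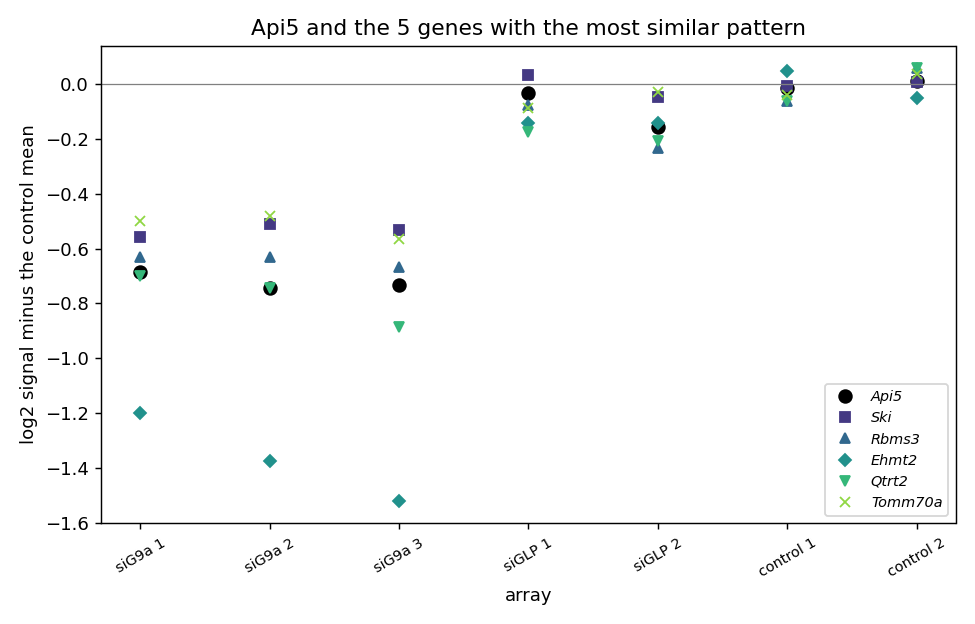
Log2 signal minus the control mean (vertical axis) of Api5 and the 5 genes with the highest Pearson r with it, on each of the 7 arrays (horizontal axis). All 6 genes sit below -0.4 on the 3 siG9a arrays and within 0.25 of 0 on the siGLP and control arrays; Ehmt2, the siRNA's target, is lowest.

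The wider apoptosis machinery was described through 44 further genes in 9 lists of roles. In siG9a minus control 0 of 44 passed by limma (7 had an unadjusted p under 0.05, beside 10.5% of all genes), with 24 above control and 20 below and a median of 0.0046. The adaptor gene Tradd, which couples the TNF receptor to downstream death and survival signals, had log2 signals of 7.02, 6.91 and 7.07 in siG9a, against 6.61 and 6.55 in control (difference 0.42, SE 0.071; limma adjusted p = 0.133). Parp1, a DNA repair enzyme gene whose product caspases cut, had 8.85, 9.01 and 8.83 in siG9a, against 9.28 and 9.28 in control (difference -0.38, SE 0.076; limma adjusted p = 0.157). Both genes had siG9a arrays clear of control, as did 5699 of 22180 genes, without passing over all genes. With only genes above the median level in the fit, Tradd passed (limma adjusted p = 0.0436), beside 148 of 11090 genes. Tradd did not pass with only genes above the 30th percentile of level, or with all genes and trended variance moderation.

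The other lists gave smaller or more scattered values in siG9a. The death receptor gene Tnfrsf21 stood at -0.28 and the executioner caspase gene Casp6 at -0.23, and Apaf1, the scaffold of the apoptosome, at 0.15. The XIAP-associated factor gene Xaf1 stood at 0.53, with siG9a signals of 5.34, 4.96 and 5.17 against 4.74 and 4.52 in control, and the protease gene Htra2 at -0.14. Bcl2a1a (-0.41) and Bcl2l10 (-0.065) among the BCL2-like inhibitors, Bok (0.0041) among the effectors, Hrk (-0.27) and Bmf (0.21) among the BH3-only genes, and Birc5 (-0.13) and Naip2 (0.36) among the inhibitors of apoptosis did not pass. Bcl2a1a and the Naip genes have near-identical copies, so their probe sets may read more than 1 gene. Bcl2l10 lay under the lower quartile on every array (2.73 to 3.02). Hrk (3.00 to 3.73) and Naip2 (3.14 to 4.03) fell under it on some arrays. Differences of such dim genes say little about expression. Dffa, the inhibitor of the apoptotic DNase, stood at 0.12. Limma adjusted p for the genes of this paragraph ranged from 0.25 (Tnfrsf21) to 0.994 (Bok).

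Genes tied to Api5 itself stayed near control in siG9a. Acin1, which encodes its partner Acinus, had 9.07, 9.04 and 8.97 in siG9a, against 9.04 and 9.01 in control. E2f1 had 6.60, 6.60 and 6.52 in siG9a, against 6.57 and 6.52 in control. Fgf2, a binding partner of API5, and the initiator caspase gene Casp2 differed by 0.086 and -0.093. All 4 overlapped between siG9a and control, as most genes did (5699 of 22180 genes did not overlap).

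In siGLP minus control 0 of the 44 further genes passed by limma, beside 0.00451% of all genes (8 had an unadjusted p under 0.05, beside 8.63% of all genes), with 20 above control, 24 below and a median of -0.0083. Casp6 had 7.23 and 7.30 in siGLP, against 6.93 and 6.98 in control (difference 0.31, SE 0.074; limma adjusted p = 0.305). Diablo, whose product frees caspases from XIAP, had 7.76 and 7.80 in siGLP, against 8.05 and 8.02 in control (difference -0.25, SE 0.079; limma adjusted p = 0.434). E2f1 had 6.72 and 6.80 in siGLP, against 6.57 and 6.52 in control (difference 0.22; limma adjusted p = 0.441). In each case the siGLP arrays were clear of the control arrays, as they were for 34.2% of all genes. The others named by the same rule were Xaf1 (0.59), Bcl2a1a (-0.49), Bik (0.45), Naip5 (0.36), Tnfrsf10b (0.21), Birc3 (-0.20), Dffb (-0.20), Dffa (-0.19), Tnfrsf21 (0.18), Casp2 (-0.17), Bbc3 (-0.14), Bok (0.13) and Bcl2l10 (0.069), with limma adjusted p from 0.458 (Naip5) to 0.898 (Bcl2l10). Several of these moved with 1 array: the siGLP minus control difference was 0.27 for Xaf1 and 0.15 for Bik without siGLP 1, and 0.91 and 0.74 without siGLP 2. Without control 1 it was -0.69 for Bcl2a1a, 0.50 for Naip5 and -0.32 for Birc3, and without control 2 it was -0.29, 0.21 and -0.089 for the same genes in that order.

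Casp6 was the 1 gene of the 44 that passed between the knockdowns. It had 7.23 and 7.30 in siGLP, against 6.67, 6.80 and 6.69 in siG9a, with the control arrays (6.93 and 6.98) between them. The siGLP minus siG9a difference was 0.54 (SE 0.067; 1.45-fold; limma adjusted p = 0.0470), beside 0.234% of all genes called. The difference ranged from 0.50 to 0.58 when 1 array was left out, and Casp6 did not pass in any of those 7 fits (limma adjusted p from 0.113 to 0.249).

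Other apoptosis genes set the knockdowns apart without passing. Tradd had 6.55 and 6.55 in siGLP, against 7.02, 6.91 and 7.07 in siG9a (difference -0.45, SE 0.071; limma adjusted p = 0.0751). Tnfrsf21 had 7.54 and 7.45 in siGLP, against 7.07, 7.08 and 6.95 in siG9a (difference 0.47, SE 0.074; limma adjusted p = 0.0763). Like Casp6, Tnfrsf21 lay above control on both siGLP arrays and below it on all siG9a arrays. Parp1 (0.40), Diablo (-0.35) and Dffa (-0.31) followed, with limma adjusted p of 0.107, 0.119 and 0.144. Bik (0.44), Naip5 (0.34), Bmf (-0.29), the initiator caspase gene Casp8 (-0.27), E2f1 (0.19), Birc5 (0.15), Bcl2l10 (0.13), Bok (0.12), Casp2 (-0.081), Bcl2l2 (0.073) and Htra2 (0.067) were the remaining genes named by the rule (limma adjusted p from 0.240 to 0.885). Without siGLP 1 the difference was 0.14 for Bik and -0.53 for Bmf, and without siGLP 2 it was 0.74 for Bik and -0.054 for Bmf. Over the 44 genes 11 had an unadjusted p under 0.05, beside 12.4% of all genes.

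**Figure D4:**
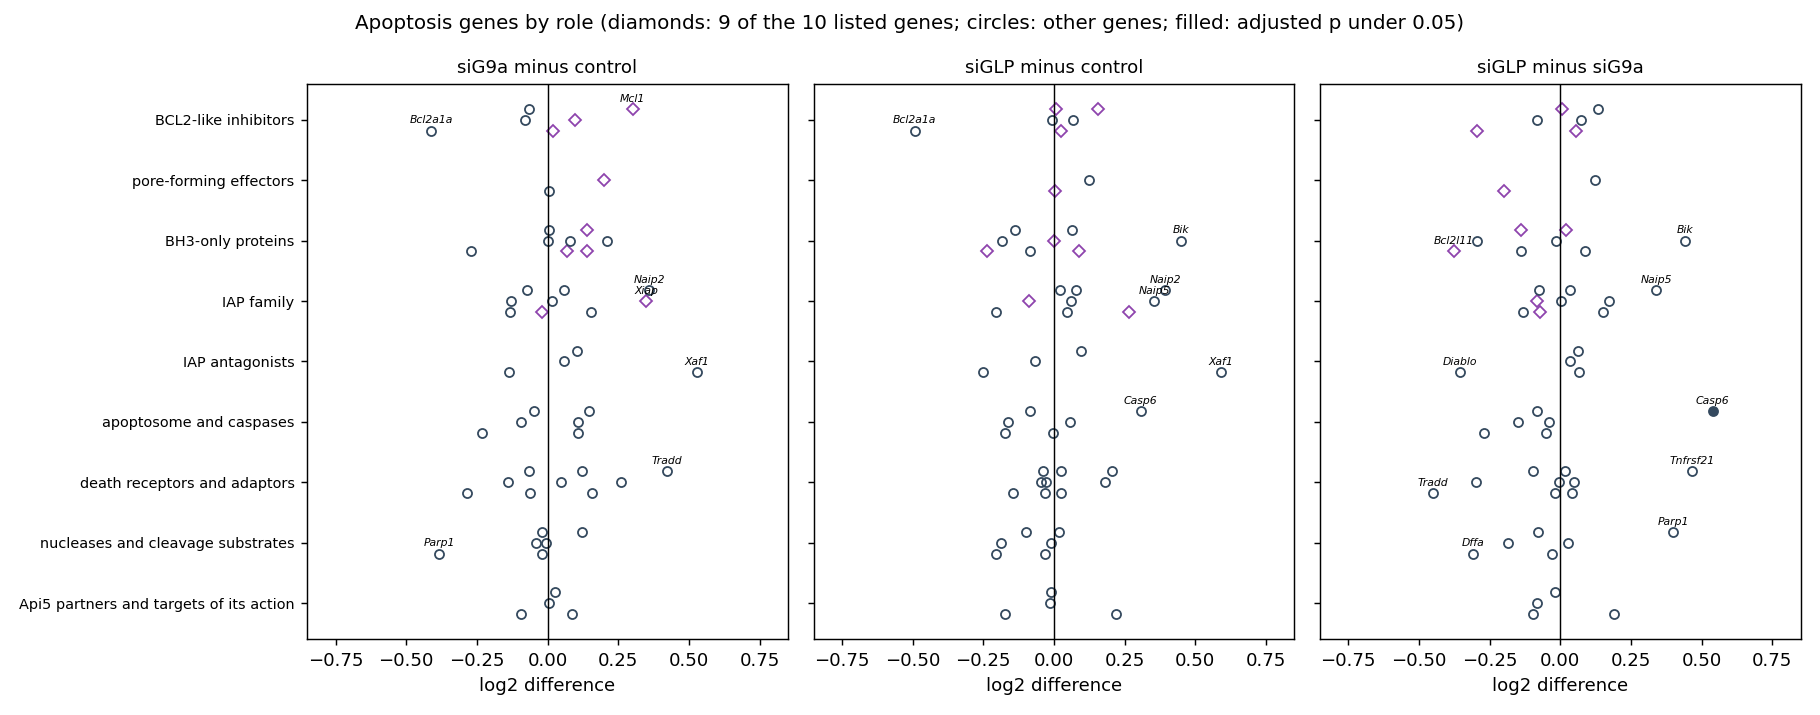
Log2 difference (horizontal axis) of each measured apoptosis gene by role list, with 1 panel each for siG9a minus control, for siGLP minus control and for siGLP minus siG9a. Diamonds are 9 of the 10 listed genes, circles the further genes, filled marks an adjusted p under 0.05, and names are printed beyond 0.3 in size; Casp6 at 0.54 in siGLP minus siG9a is the 1 filled mark.

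Most of the 6 myoblast markers stood lower in each knockdown beside these results. In siG9a 5 of 6 lay wholly below control (median -0.31), against 11.7% of all genes, and in siGLP 4 of 6 (median -0.21), against 16.9% of all genes. By limma 0 passed, and an unadjusted p under 0.05 was reached by 4 in siG9a (10.5% of all genes) and 3 in siGLP (8.63% of all genes). In siG9a Myf5 was the exception (difference from control 0.13, arrays overlapping). In siGLP Myod1 (-0.0025) overlapped control and Itga7 (0.075) lay above it, whereas Myod1 stood at -0.68 in siG9a. Des, the brightest of the 6 (mean 11.02 in control), weighs most in their summed signal. The log2 of the summed signal of the 6 was 11.58 to 11.64 in siG9a, 11.55 to 11.61 in siGLP and 11.75 to 11.76 in control. For 4 leukocyte markers it was 7.91 to 8.04 in siG9a, 7.80 to 8.04 in siGLP and 7.37 to 7.55 in control. Cd68, a lysosomal protein gene not confined to leukocytes, is the brightest of these 4 and weighs most in their sum. It stood at 0.62 in siG9a and 0.54 in siGLP against control. For Cd3e, Itgam and Ptprc the differences from control were 0.15, 0.0087 and -0.011 in siG9a. In siGLP they were 0.10, 0.023 and 0.084. Ptprc stayed under the lower quartile in every group. The part of the markers in the differences of the apoptosis genes was not tested.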

How the data were processed

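RNA from 7 C2C12 samples was measured on 1 array each, from 100 ng of total RNA. The deposited table gives log2 values per probe set, and the authors made them with RMA and Partek per the submitters' processing notes, without versions; RMA corrects background, equalises the arrays' distributions and summarises probes, so values of dim probe sets are compressed and changes are relative to the bulk of transcripts. The log2 scale was read from the range of the values. Scanner files and scan dates were not used here, and the number of arrays limits the precision.

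Of 33649 probe sets, 23521 had 1 symbol, 1814 several and 8314 none; only the first kind was used. Current symbols came from RefSeq (GRCm38.p6) by gene number, for 23328 of them. For the 1082 genes with several probe sets the one with the highest mean was kept. Limma 3.58.1 in R 4.3.3 was fitted to all 22180 genes with 1 mean per group and all 7 arrays (4 residual degrees of freedom), two-sided, with Benjamini-Hochberg adjustment over all genes and a threshold of 0.05. The script was tested on simulated data. Promoter windows came from RefSeq.

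The 10 genes and all lists were chosen with earlier results of these data known. The rule for names took the 10 genes, Ehmt2 and Ehmt1, every gene of the role lists past the threshold, the 2 further genes with the smallest p in each list and contrast, and the 5 genes most like Api5. The alternatives were 2 filters on level, 2 variance models, 2 normalizations, fits of the compared groups only, the mean over probe sets, a replicate block and leaving out each array.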

Additional observations from a re-analysis of the deposited data

How the results depend on the processing

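The number of genes past the threshold depended strongly on the processing, while the Api5 difference in siG9a minus control stayed between -0.74 and -0.71 in all 16 alternatives. The count over all genes in siG9a minus control was 6. It was 30 with only genes above the 30th percentile of level, 148 with only those above the median, 100 with trended and robust variance moderation, 16 after quantile normalization, and 0 without moderation, with only the compared groups in the fit, or with the replicate block. In siGLP minus control it was 1, and 21 above the median level, 23 with trended moderation, and 0 without moderation, with only the compared groups, or with the replicate block. In siGLP minus siG9a it was 52, and 171 above the 30th percentile, 350 above the median, 304 with trended moderation, 3 without moderation, and 0 with only the compared groups or the replicate block. Leaving out 1 siG9a array gave 0 in siG9a minus control, 0 to 1 in siGLP minus control and 0 in siGLP minus siG9a. Fits without 1 array have fewer degrees of freedom, and the cause of the lost calls was not tested. Where an siRNA was left with 1 array, that array is assumed to vary like the other groups.

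Of the 10 genes, the 1 past the threshold in siG9a minus control and in siGLP minus siG9a (Api5 in both) became 0 without moderation, with only the compared groups, with the replicate block and in all 7 omissions of 1 array. Over all genes, siGLP minus siG9a gave 171 of 15526 above the 30th percentile and 350 of 11090 above the median. Trended moderation gave 304 of 22180. Of the 44 further genes, 38 lay above the 30th percentile and 28 above the median. Of these 28, 1 (Tradd) passed in siG9a minus control, beside 148 of 11090 genes. In siGLP minus siG9a the 1 (Casp6) became 3 above the 30th percentile, 5 above the median and 4 with trended moderation, and 0 after quantile normalization, without moderation, with only the compared groups, with the replicate block and in all 7 omissions.

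The differences that changed sign were close to 0 or rested on 1 array. With all probe sets of a gene averaged, Bcl2 stood at -0.000545 in siGLP minus control and at -0.094 in siGLP minus siG9a, and Mcl1 at -0.033 in siGLP minus control. Bok in siG9a minus control stood at -0.0034 after quantile normalization, -0.0060 after cyclic loess and -0.035 with the replicate block. With 1 array left out, siGLP minus control ranged from -0.018 to 0.021 for Bad, -0.030 to 0.036 for Bak1 and -0.053 to 0.066 for Mcl1. Likewise siGLP minus siG9a ranged from -0.037 to 0.028 for Bcl2, -0.083 to 0.18 for Bcl2l2, -0.045 to 0.11 for Bid and -0.12 to 0.00086 for Birc2, and siG9a minus control from -0.086 to 0.095 for Bok and -0.56 to 0.022 for Hrk. Over all 16 alternatives siG9a minus control ranged from -0.0063 to 0.094 for Bcl2, -0.023 to 0.13 for Bid and -0.090 to 0.040 for Birc2. The count of the listed genes above control in siG9a therefore depends on the processing. The causes were not tested.

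Arrays share only a replicate number in the labels. Across genes, deviations from the group means of same-numbered arrays correlated at 0.14 and 0.0047 for siG9a with control, 0.10 in both pairs for siGLP with control, and 0.17 and 0.14 for siGLP with siG9a. In a group of 2 arrays the deviations mirror each other, so the 2 values for siGLP with control are the same value. For differently numbered arrays the correlation ran from -0.17 (siG9a 1 with siGLP 2) to 0.15 (control 2 with siG9a 3). These values do not settle whether the numbers pair the arrays. The labels do not say that they do, so the main fit did not pair them. With the replicate block Api5 stood at -0.71 in siG9a minus control.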
